A study of Sinohyriopsis cumingii with 10 samples.

Results

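The late-onset contigs are 90 transcript pieces from a freshwater mussel used for pearl culture, Sinohyriopsis (Hyriopsis) cumingii, that were at their highest in the 14 d and 30 d pearl sac libraries, out of 211508 contigs that could be read in all 10 files. They were chosen from the levels themselves. Reads were scaled to a common library total (CPM, reads per 1000000), the score was the lower of the 14 d and 30 d values of log2(CPM + 1) minus the highest of the 8 earlier values, and a member had a score of at least 1, at least 5 CPM at both late times and a mean under 1000 CPM. The number stayed under the limit of 150, so no contig was cut off by rank. Of the 9250 contigs that met the CPM limits, the 90 members made up 0.973%, and another 54 contigs had the score but fell short of 5 CPM.

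RNA was sequenced from pearl sac tissue at 0, 2, 6, 12, 24, 48 and 96 h and at 7, 14 and 30 d after implantation, 1 library each, with 20315910 to 24069268 reads. All mussels were 2 years old with shells of 9 to 10 cm. The 10 libraries are told apart only by a time point, and none is labelled as coming from an animal without an implant. Whether mussels were pooled, which tissue stands for 0 h, and whether it had been grafted, the labels leave unsaid. With 1 library per time nothing could be tested, no p-value is given, and every difference below is a difference between libraries that may hold differences between animals. Values listed for a contig follow the order of the times: 0, 2, 6, 12, 24, 48 and 96 h, then 7, 14 and 30 d.

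A pearl sac forms when epithelium of a grafted piece of mantle spreads and closes into a pouch inside the host. The closed epithelium then secretes an organic matrix and calcium carbonate, which build up as nacre, the same material that lines the shell. In the files contigs carry no gene names and no sequences, so the identity of the late-onset contigs, and whether any of them belongs to nacre secretion, was not analysed here. For the same reason the tissue label could not be set against marker genes, and a change in the cells present cannot be told apart from a change in RNA per cell.

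As a group, the members had low medians for a week and stood far higher in the last 2 libraries. Their median level was 2.45, 1.38, 1.50, 1.81, 0.872, 1.25 and 1.55 CPM from 0 to 96 h, and 2.72, 14.0 and 25.2 CPM from 7 to 30 d. Scaled by TMM, which sets libraries so that most contigs keep their level, the medians were 3.58, 1.88, 2.52, 1.85, 0.902, 0.875 and 1.22 CPM from 0 to 96 h, and 1.65, 11.8 and 25.4 CPM from 7 to 30 d. The lowest median was at 24 h with total counts and at 48 h under TMM, and the 7 d median lay above that at 0 h with total counts and below it under TMM. The step from 7 d to 14 d follows from the rule. Together the members held 0.0529% of all reads at 0 h (95% Wilson interval 0.0519% to 0.0538%), and 0.0224% at 24 h. The share was then 0.0457% at 96 h and 0.141%, 0.752% and 0.890% from 7 to 30 d (0.886% to 0.894% at 30 d). These intervals cover counting error only.

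Late onset meant a rise above an earlier signal that was low in most members and seen in all. In a contig of 1971 bases that signal was at most 3 reads per library, too few to tell a low level from none. No member was without reads in all 8 earlier libraries, and 11 had no read in at least 1 of them. The highest earlier level was under 1 CPM in 7 members and at least 5 CPM in 37, with a median of 3.38 CPM. At 7 d every member had reads, 29 members already reached 5 CPM and 14 were under 1 CPM. The fewest reads behind any late value were 110.

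**Figure D1:**
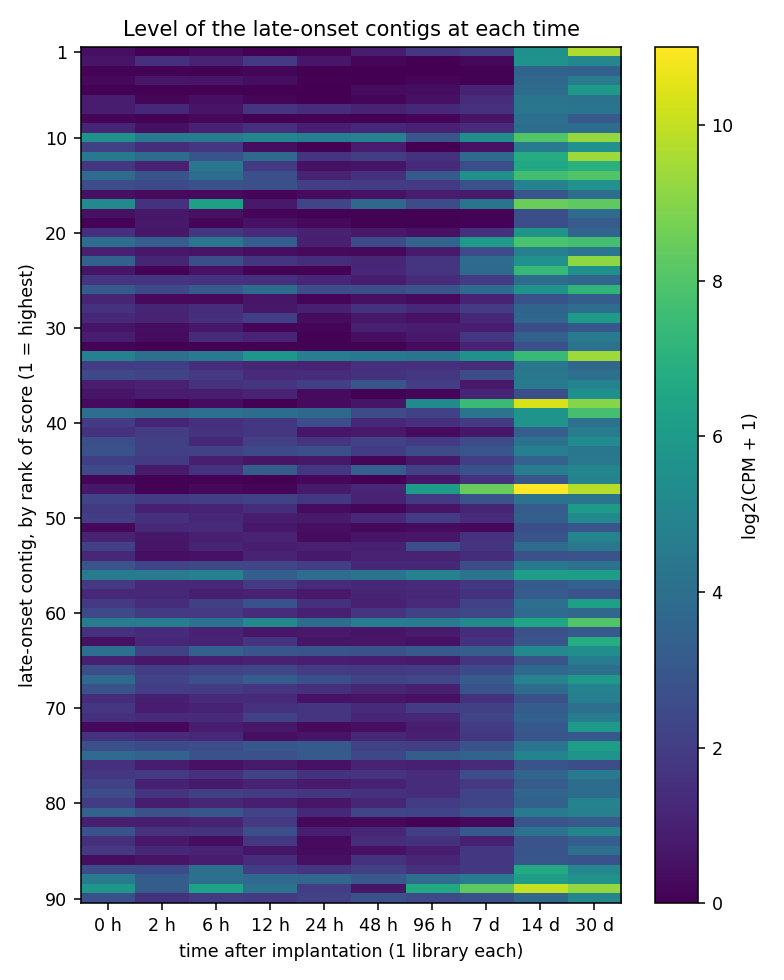
Colour gives log2(CPM + 1) of each of the 90 late-onset contigs (rows, highest score at the top) in each library (columns, in order of time, 1 library each). The columns from 0 h to 7 d are dark in most rows and the 14 d and 30 d columns are lighter in all, while a few rows are bright from 96 h on.

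Scores ran from 3.38 down to 1.00 with a median of 1.37. Only 17 members reached a score of 2 and 4 reached 3, while 29 were under 1.2, so much of the group lay close to the limit. At ranks 22, 45 and 68 the scores were 1.76, 1.38 and 1.13. The rank 22 contig (2074 bases) had at most 0.926 CPM up to 96 h, then 4.89, 27.8 and 18.9 CPM from 7 to 30 d, while the rank 45 contig (637 bases) had already shown 8.78 CPM at 48 h and the rank 68 contig (1491 bases) 5.90 CPM at 7 d. The 2 members just inside the limit had scores of 1.01 and 1.00: a contig of 836 bases with 617 CPM at its lower late time and 307 CPM at its highest earlier time, and a contig of 1948 bases with 12.3 CPM late and 5.62 CPM earlier. The 2 contigs just outside had scores of 0.997 and 0.996, with 11.4 CPM late and 5.22 CPM earlier in one of 518 bases, and 5.22 CPM late and 2.12 CPM earlier in one of 815 bases.

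Membership depended on the scaling. The TMM factor was lowest at 6 h (0.594) and highest at 7 d (1.65), and was 1.19 at 14 d and 0.992 at 30 d. TMM raised the earliest levels and lowered those from 48 h to 14 d. Under TMM 53 contigs met the rule, and 47 of the 90 members were among them. Of the 43 that were not, 37 had a score under 1 and 6 had too few CPM at a late time. All 17 members with a score of at least 2 met the rule under both scalings, against 6 of the 29 with a score under 1.2.

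The member with the highest score, contig279410 (533 bases, score 3.38), was nearly silent on the first day and climbed in every later library. It had 0.353, 0, 0.230, 0, 0.125, 0.789 and 2.46 CPM from 0 to 96 h, and 3.41, 45.0 and 835 CPM from 7 to 30 d. The 30 d library held 17726 of its reads, against 8 in the 0 h library. Its 14 d level was 13.2-fold above its 7 d level, the highest earlier one (exact 95% counting interval 10.4 to 16.9), and its 30 d level was 18.5-fold above 14 d (17.4 to 19.8). Per length it was the most abundant member at 30 d, with a deposited RPKM (CPM per 1000 bases of contig) of 1564.

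The second, contig180532 (2206 bases, score 3.26), had weak early signal that was lost before the late rise. It had 0.529, 1.81, 1.11, 2.61, 0.582, 0.139 and 0 CPM up to 96 h, and 0.185, 49.1 and 33.5 CPM in the last 3 libraries. Here the highest earlier library was 12 h, and the 30 d level was 12.8-fold above it (9.72 to 17.3). At 96 h no read was seen, which allows up to 0.148 CPM (3 reads). A contig of 1971 bases had the lowest earlier signal beside a score over 3: at most 3 reads in any earlier library, none at 24, 48 and 96 h, and 10.7 CPM at 14 d and 9.56 CPM at 30 d.

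The named members that dropped most after 14 d peaked in the 14 d library. contig036685 (165 bases, the shortest member) had 10.9 CPM at 30 d and 50.4 CPM at 14 d, a 30 d to 14 d ratio of 0.216 (0.186 to 0.249). Before 14 d it lay between 0.394 CPM at 96 h and 2.40 CPM at 6 h. contig196048 (611 bases) had 0.529, 0.0904, 0.461, 0.0483, 0.0831, 1.35 and 2.12 CPM up to 96 h, and 12.9, 165 and 45.0 CPM in the last 3 libraries. Its level at 30 d was 0.273 of that at 14 d (0.254 to 0.293), and still 3.50-fold above 7 d (3.06 to 4.01). Both met the rule under TMM as well.

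**Figure D2:**
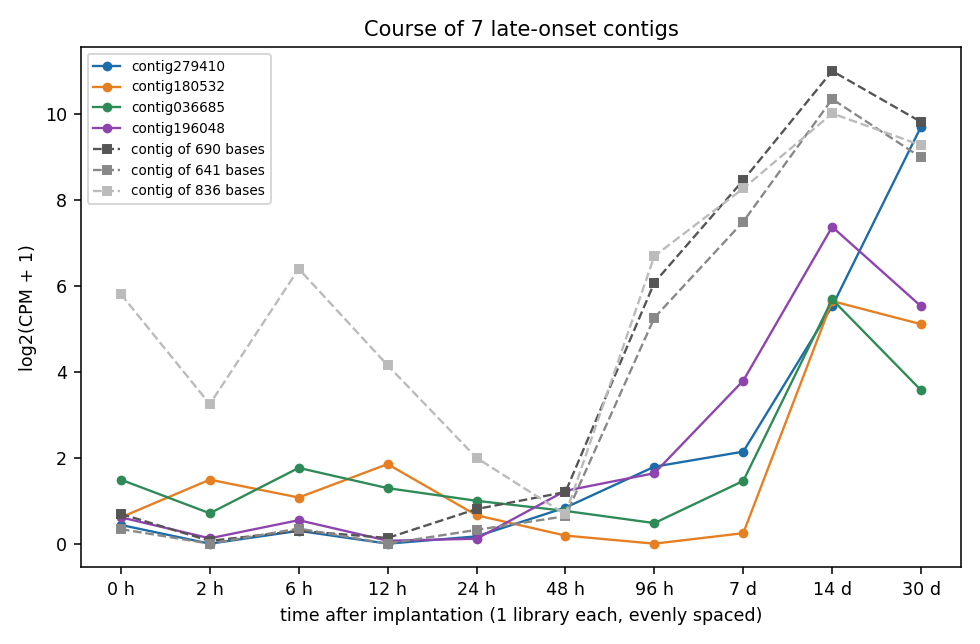
The y axis gives log2(CPM + 1) and the x axis the 10 libraries in order of time, evenly spaced; solid lines are the 4 named members and dashed lines the 3 members with the most reads at 14 d. contig279410 is highest at 30 d, the other 6 are highest at 14 d, and all 3 dashed lines climb from 48 h to 14 d, 2 of them from under 1 CPM up to 24 h and the third (836 bases) after up to 83.2 CPM at 6 h.

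The 3 members with the most reads at 14 d, chosen after their values were seen, carried much of the signal at 14 d. A contig of 690 bases had 1.30 and 66.5 CPM at 48 and 96 h, and 351, 2047 and 899 CPM from 7 to 30 d, after at most 0.748 CPM up to 24 h. One of 641 bases had 0.557 and 37.3 CPM, then 179, 1301 and 506 CPM, after at most 0.276 CPM up to 24 h. The courses of these 2 contigs had a Pearson correlation of 0.999 over the 10 libraries (log2(CPM + 1)), the closest of any pair of members. The rule chose all members as high in the same late libraries and lower before, so close correlations between members are built in. For example, contigs of 725 and 2317 bases had 0.995. Whether the contigs of 690 and 641 bases are pieces or copies of 1 gene was not analysed here. Reads of near-identical copies could be split between contigs.

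The third, of 836 bases, was different early on. It had 55.0, 8.50, 83.2, 16.8, 2.99 and 0.604 CPM from 0 to 48 h, then 102 CPM at 96 h and 307, 1032 and 617 CPM from 7 to 30 d. Its low point at 48 h lay just before the same climb as in the other 2. Together the 3 contigs held 22.7% of the members' reads at 30 d and 58.3% at 14 d. Without them the other members held 0.0473% of all reads at 0 h and 0.0251% at 96 h, and 0.0577%, 0.314% and 0.688% from 7 to 30 d.

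Counted after the values were seen, 7 d lay above 96 h in 80 members (88.9%), against 74.4% of the 9250 contigs. Under TMM it did so in 75 members (83.3%), against 41.9%. The steeper climb of the 3 contigs was shared by few other members. A shape counted here had a level rising from 48 h to 96 h and again to 7 d. Its 7 d CPM also lay at least 2-fold above every library up to 48 h. It was seen in 13 members, the 3 included. This was 14.4% of the members, against 3.75% of the 9250 contigs that met the CPM limits; the shape was chosen after the values were seen. Under TMM 8 members had the shape (8.89%), against 0.649% of the 9250 contigs. The rule used these earlier levels, so the shares in this paragraph describe the group and support nothing. A contig of 414 bases had the shape on 3 reads at 96 h and 11 at 7 d. Of the 13, 12 met the late-onset rule under TMM, and their median length was 725 bases. A pair of similar length was among them: a contig of 1066 bases with 0.956 CPM at 24 h and 10.9 CPM at 96 h, then 61.5, 238 and 213 CPM, and one of 1082 bases with 1.12, 7.58, 44.4, 202 and 256 CPM at the same times. Both had been at 13.5 to 14.6 CPM at 0 h, so they passed through a low point at 24 h before they rose.

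Such a low point was common in the group. The folds here are on the log2(CPM + 1) scale. At 24 h, 23 of the 90 members (25.6%) lay at least 2-fold below 0 h and 1 (1.11%) at least 2-fold above. Among the 9250 contigs 17.7% lay below and 26.0% above. The added 1 shrinks differences at low levels, so the 2 sets are not compared alike. Their 0 h medians were 2.45 CPM in members and 10.7 CPM in the 9250 contigs. At 48 h the members again counted 23 below (25.6%) and 2 above (2.22%), against 9.43% and 36.1%. The single lowest earlier library was 24, 48 or 96 h in 56 members (62.2%), against 24.1% of the 9250 contigs. Under TMM the numbers were 48 below (53.3%) and 0 above at 24 h, against 29.6% and 17.6%. At 48 h they were 56 below (62.2%) and 1 above (1.11%), against 26.6% and 10.8%. The lowest library was 24, 48 or 96 h in 71 members (78.9%), against 36.2%. The rule excludes contigs that were high at any of these times, so the shares describe the group and support nothing.

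Some members, picked here after their values were seen, stood higher early and late than between. A contig of 632 bases had 37.3, 2.03, 75.4, 0.676, 3.86, 11.6 and 4.87 CPM up to 96 h, and 18.1, 362 and 307 CPM from 7 to 30 d. Its level at 0 and 6 h exceeded that at all other times before 14 d, with the 2 h library low between them. A contig of 3205 bases had 3.26, 1.72 and 2.30 CPM from 0 to 6 h and less than 1 CPM from 12 h to 7 d, then 21.2 and 46.0 CPM. A different shape, absent in both contigs, had all levels from 24 h to 7 d below all from 0 to 12 h. With total counts it was seen in 4 members (4.44%), against 2.58% of the 9250 contigs. Under TMM it was seen in 24 (26.7%), against 8.29%. These shares too rest on earlier levels that the rule used, so they are a description and support nothing.

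The highest library before 14 d was 7 d in 37 members (41.1%), against 41.3% of the 9250 contigs. With total counts the 7 d share was thus that of the background. It was 0 h in 20 members (22.2% against 8.98%), 2 or 6 h in 11 (12.2% against 6.46%), 12 or 24 h in 15 (16.7% against 16.9%) and 48 or 96 h in 7 (7.78% against 26.4%). Under TMM it was 7 d in 12 members (13.3%), against 6.55%, so the 7 d shares were not alike there. It was 0 h in 38 (42.2%), against 32.5%, and 48 or 96 h in 2 (2.22%), against 14.9%. The rule used the height of the highest earlier level, so these shares describe the group and support nothing. The next folds are on the log2(CPM + 1) scale, which shrinks differences at low levels. In direct comparison, 13 members (14.4%) were at least 2-fold higher at 7 d than at 0 h. At least 2-fold lower were 2 (2.22%), and 44.2% and 5.37% of the 9250 contigs were higher and lower. Under TMM the direction turned, with 6 higher (6.67%) and 26 lower (28.9%), against 8.43% and 21.9%. Members whose highest earlier library was 0 h had medians of 4.54 CPM at 0 h and 1.16 CPM at 24 h, then 3.88, 13.0 and 23.3 CPM from 7 to 30 d. Those with 7 d as the highest had 1.72 and 0.706 CPM, then 3.41, 14.0 and 26.2 CPM, so the late medians of both kinds lay close together.

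**Figure D3:**
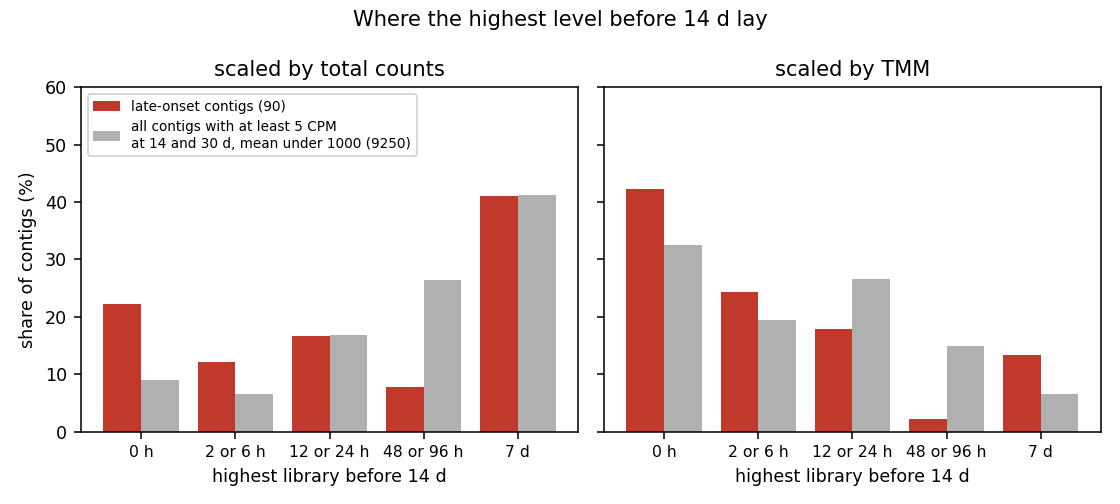
Bars give the share of contigs (%) whose highest level before 14 d lay at the time on the x axis, for the 90 late-onset contigs (red, left) and the 9250 contigs with at least 5 CPM at 14 and 30 d and a mean under 1000 CPM (grey, right), scaled by total counts (left panel) and TMM (right panel). The 7 d bars are level at 41.1% and 41.3% with total counts. In both panels the 48 or 96 h bar of the members is the lower one. The rule used these earlier levels, so the bars are a description.

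Between the 2 late libraries the members parted. The rule needed both to be high and did not fix which was higher, but since it used both levels the counts are a description. At 30 d, 34 members (37.8%) were at least 2-fold above 14 d on the log2(CPM + 1) scale, against 7.73% of the 9250 contigs, and 6 (6.67%) were at least 2-fold below, against 16.1%. Any higher level at 30 d was seen in 63 members (70.0%), against 32.8%. The median of log2(CPM + 1) at 30 d minus that at 14 d was 0.47 over the members and -0.29 over the 9250 contigs. Under TMM, which moved the median of the 9250 contigs to -0.05, the members' median was 0.70. There 39 members (43.3%) were at least 2-fold higher, against 10.7%, and 5 (5.56%) at least 2-fold lower, against 9.18%. Of the 47 members that met the rule under both scalings, 17 were at least 2-fold higher and 5 lower with total counts, and their median was 0.37. The exact counting interval of the CPM ratio lay above 1 in 58 members (64.4%), against 23.9% of the 9250 contigs. It lay below 1 in 19 members (21.1%), against 54.8%, and held 1 in 13 (14.4%), against 21.3%. With total counts, most contigs of either kind thus differed by more than counting error alone. The intervals were not computed under TMM, which moved the median of the 9250 contigs to -0.05.

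On the log2(CPM + 1) scale, 13 members (14.4%) were at least 4-fold higher at 30 d than at 14 d, against 2.38% of the 9250 contigs, and 1 was at least 4-fold lower (1.11% against 2.17%). Under TMM 18 members were 4-fold higher (20.0% against 3.09%) and 0 were 4-fold lower, against 1.45%. After contig279410, the next 2 by CPM ratio were a contig of 741 bases with 110 CPM at 30 d and 6.37 CPM at 14 d, a 17.3-fold difference (14.6 to 20.7), and one of 2725 bases with 568 CPM at 30 d and 46.1 CPM at 14 d, 12.3-fold (11.5 to 13.1). The contig of 2725 bases had had 13.2 CPM at 7 d and 1.30 CPM at 48 h before that. A contig of 905 bases, 741 RPKM at 30 d, stood at 671 CPM at 30 d and 112 CPM at 14 d, and had fallen to 2.02 CPM at 96 h after 21.0 CPM at 0 h. All 3 members with the most reads at 14 d were among those lower at 30 d, with ratios of 0.439 (0.432 to 0.447) for the contig of 690 bases, 0.389 (0.381 to 0.398) for that of 641 bases and 0.599 (0.586 to 0.612) for that of 836 bases.

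**Figure D4:**
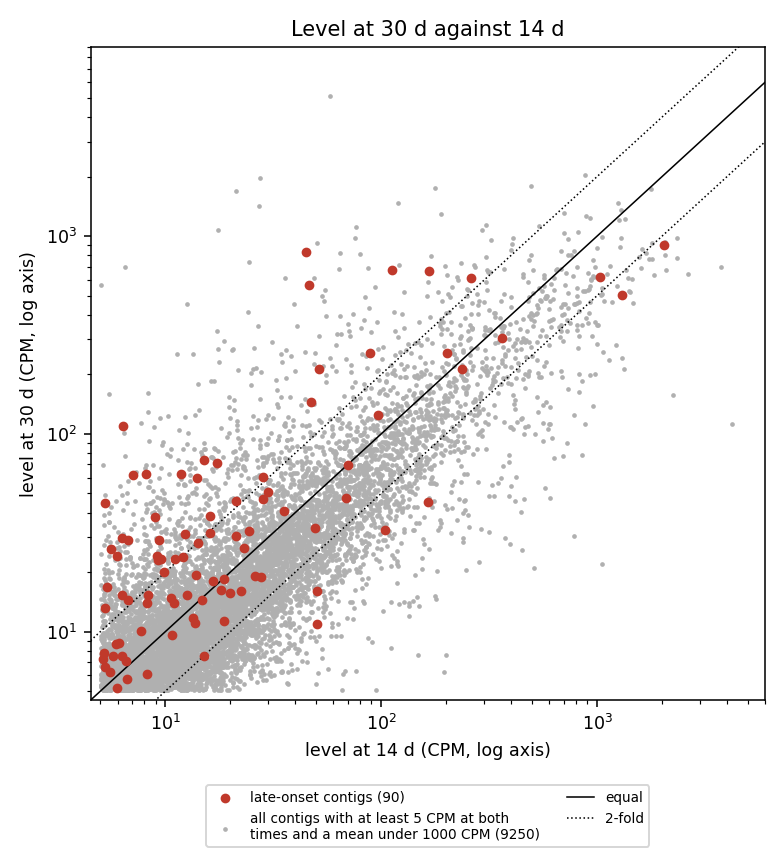
Each point is a contig, with CPM at 14 d on the x axis and at 30 d on the y axis (both log); red points are the 90 late-onset contigs, grey points all 9250 contigs within the CPM limits, and lines mark equal levels and 2-fold differences in CPM. More red points lie above the upper 2-fold line than below the lower one (34 and 6 by log2(CPM + 1)), and the 3 members with the highest 14 d level lie below the line of equality.

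Length was not a term of the rule, but CPM is not divided by length, so length could still affect which contigs met it. With RPKM in place of CPM, the contigs that met the rule had a median length of 544 bases. The members had a median length of 1254.5 bases (quartiles 588.5 and 2019.75, range 165 to 6464), against 2600.5 bases (1555 and 4038.5) in the 9250 contigs. Members under 1000 bases numbered 36 (40.0%), against 12.6%. The lower of the 14 d and 30 d levels had a median of 12.5 CPM in members and 12.3 CPM in the 9250 contigs. The 2 sets were alike in that measure only. Their medians were 2.72 and 21.6 CPM at 7 d, 14.0 and 17.7 CPM at 14 d, and 25.2 and 14.6 CPM at 30 d. The lengths were therefore not compared at matched levels. Per length the median of the lower late level was 13.2 RPKM in members and 5.52 RPKM in the 9250 contigs, which combines those late levels, used by the rule, with the shorter length. A short contig can be a short transcript or a broken piece of a long one, and the files do not tell these apart. Per length the highest members at 14 d were the contigs of 690, 641 and 836 bases, with 2966, 2029 and 1234 RPKM, followed by those of 632 bases with 573 RPKM and 254 bases with 378 RPKM. At 30 d they were contig279410 with 1564 RPKM, and those of 690 bases with 1301, 641 bases with 789, 905 bases with 741 and 836 bases with 738 RPKM.

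Contigs at least 1 log2 unit above all 9 other libraries in a single late library, with at least 5 CPM there and a mean under 1000 CPM, numbered 955 at 30 d and 524 at 14 d. Among them were 34 and 6 members, the ones 2-fold apart between the 2 late times, which were also above the 8 earlier libraries at the other late time. The other 921 contigs at 30 d and 518 at 14 d were not late-onset contigs.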

How the data were processed

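The deposited files list contigs of an assembled transcriptome with reads and RPKM, per the file headers; for the assembler, aligner and counter, names and versions were not given in the sources used. The labels' protocols describe mRNA libraries made with random primers and 12 to 15 PCR cycles, with no molecular identifiers. The deposited reads column was read as estimated counts, whole except for 0.5, which always stands beside an RPKM of 0 and was set to 0. The authors' RPKM values, with reads and totals, gave contig lengths. A damaged line in the 30 d file cost 166 of 211674 contigs, left out throughout; they held 22413 reads (0.105%) at 30 d.

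CPM used each file's own total (the readable reads at 30 d). TMM factors (edgeR 4.0.16) and size factors (DESeq2 1.42.0, R 4.3.3) were computed on the 52894 contigs kept by filterByExpr. No model was fitted, since each time had 1 library. Exact (Clopper-Pearson based) and Wilson intervals cover counting error only. Members and summaries were chosen with earlier results of these data known. Contigs are named by ID only for the 2 highest scores and the 2 largest falls from 14 to 30 d; others are given by length.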

Additional observations from a re-analysis of the deposited data

Results flagged for a closer look

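Late signal was also seen in contigs left out of every comparison. Of the 166 contigs lost to the damaged 30 d line, 3 had at least 5 CPM at 14 d and lay at least 1 log2 unit above all 8 earlier libraries, 1.81% against 0.338% of the readable contigs (714). The highest of the 3 had 116 CPM at 14 d and 47.8 CPM at 0 h. Their level at 30 d was not analysed here, so they may or may not meet the rule.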

How the results depend on the processing

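The rule was reapplied under each alternative. The 90 contigs became 53 with TMM and 53 with DESeq2 size factors, 39 with a pseudocount of 5 CPM, 144 with no CPM minimum, 55 with a minimum of 10 CPM and 17 with a score of at least 2; 12 of 21 settings stayed within 1.5 times. Leaving libraries out gave 90 to 1131: 173 without 7 d, 132 without 0 h, 711 with 14 d alone and 1131 with 30 d alone as the late level. Of the 90, 65 remained with RPKM in place of CPM (105 contigs) and 88 at equal depth (96 contigs). The 30 d minus 14 d median of 0.47 was 0.33 with a pseudocount of 5 CPM and 0.18 with RPKM, and -1.95 to 3.90 over the left-out libraries; it reversed to -1.95 where 14 d alone was the late level, and was 3.90 where 30 d alone was, both of which select for that library by construction. It kept its sign and stayed within 1.5 times in 18 of 21 settings. Without 7 d, and with 14 d or 30 d alone, the limit of 150 members applied, so all values but the contig counts describe the 150 highest scores there. The 7 d library was the highest earlier one in 37 of 90 members as reported. It was so in 14 of 53 with TMM and 13 of 53 with DESeq2 factors. With a pseudocount of 5 CPM it was 16 of 39, with a 10 CPM minimum 21 of 55, and with a score of 2, 5 of 17. Over the left-out libraries the number was 33 to 65 (65 of 132 without 0 h, 63 of 150 with 14 d alone, 33 of 150 with 30 d alone). Without 7 d there is no such value. The median length of 1254.5 bases, within 1.5 times in 20 of 21 settings, was 905 with TMM, 905 with DESeq2 factors, 905 with a score of 2 and 544 with RPKM, and 890.5 to 1431.5 over the left-out libraries. Fewer contigs follow from the stricter limits by construction; the cause of the other changes was not tested. No paired analysis was possible because each time has 1 library and no result comes from a test. Depth limits levels under 1 CPM most.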
